A study of Sus scrofa with 63 samples.

Results

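Genes through which the jejunum activates, inactivates and senses thyroid hormone were followed in pig fetuses. They were the deiodinases DIO1, DIO2 and DIO3, the nuclear receptors THRA and THRB, the corepressor NCOR1 and the target gene KLF9. The members were chosen by name, as all array probes whose gene name was one of these 7, in any letter case, which gave 28 of the 60305 probes on the array. The study compared the middle jejunum of Large White (LW) pigs, a breed with high mortality at birth, with that of Meishan (MS) pigs, whose piglets survive better, at day 90 and day 110 of gestation. Total RNA of 63 male fetuses was labelled with Cy3 and hybridised to one-colour Agilent porcine arrays, with 1 fetus per array.

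The 4 genotypes came from sows inseminated with mixed LW and MS semen, so that litters held purebred and crossbred fetuses. LW and MS fetuses were purebred, LWMS fetuses had an LW sire and an MS sow, and MSLW fetuses had an MS sire and an LW sow. At day 90 there were 9 LW, 6 MS, 9 LWMS and 8 MSLW fetuses, and at day 110 there were 9, 7, 9 and 6. Litters were not told apart in the tests, and the p-values measure the spread between these fetuses.

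Thyroid hormone leaves the thyroid mainly as T4, which has to lose an iodine atom to become T3, the form that binds the receptors. DIO1 and DIO2 are selenoenzymes that remove an outer ring iodine and make T3, DIO3 removes an inner ring iodine and inactivates both hormones, and DIO1 can do either. THRA and THRB bind DNA with a retinoid X receptor, recruit NCOR1 to silence target genes while hormone is absent, and release it when T3 binds, and in the gut T3 and its receptors are known for their part in the maturation of the epithelium. KLF9 is a zinc finger transcription factor whose gene is a direct T3 target in many tissues.

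Each probe is a 60-base DNA strand, and the pairs below show how probes of the deiodinases and of THRB compare with each other. Probe sequences were compared only with those of other probes, which does not settle what each probe detects. The DIO1 and THRB probes shown are not the brightest ones, by which those genes are described below. The probe A_72_P035401 of DIO1 and the probe O5493 of DIO2 lie on related stretches of the 2 genes. Laid side by side they match at 32 of 59 positions, in capitals here, so each signal comes from a probe that differs from the other at the remaining positions.
DIO1 A_72_P035401: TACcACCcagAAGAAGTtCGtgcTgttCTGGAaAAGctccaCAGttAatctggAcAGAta
DIO2 O5493: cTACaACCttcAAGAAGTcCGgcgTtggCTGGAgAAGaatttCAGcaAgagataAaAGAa
THRB had a pair of probes on opposite strands, which share 26 bases, in capitals here, as reverse complements of each other.
THRB O10872: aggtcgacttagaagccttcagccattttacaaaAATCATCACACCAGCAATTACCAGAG
THRB CUST_66_PI427286967: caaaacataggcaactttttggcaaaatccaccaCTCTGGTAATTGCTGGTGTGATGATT
The first was well above background on 63 of 63 arrays, by the scanner's own flag, and the second on 10 of 63. The other overlaps lay within DIO2 and NCOR1, where 2 probes each had the same sequence, within DIO3, where 2 probes shared 59 bases, and within KLF9.

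Signals are given as the log2 of the background-corrected intensity minus the 75th percentile of the array, so that 0 is as bright as that percentile and 1 unit is a 2-fold difference. Probes entered the tests where 75% or more of the arrays in any group showed them well above background, which left 23 of the 28 probes and 40515 of all 60305. Each gene is described by its brightest tested probe, and no level is ranked against that of another probe. For KLF9 alone, differences between probes within an array were compared between the breeds. Of the 7 genes, 6 had a tested probe and DIO3 had none. The share of all probes well above background ranged from 51.2% to 87.6% of an array, and the arrays lay on 8 slides of 7 or 8. The jejunal label was checked on enterocyte markers. FABP2, APOA4, APOA1, CDH1 and EPCAM were measured, VIL1, CDX2 and KRT20 had no probe, and 1 array stood apart. MS fetus 632 of day 110 had the lowest median correlation with its group (r = 0.905 over probes). The next lowest array was at 0.925 and the highest at 0.983. Values that fetus 632 moved are also given without it. Without it the changes with age of DIO2, THRA, THRB and KLF9 over the 4 genotypes were 1.07, -0.59, -1.37 and 1.498, all still called.

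Between day 90 and day 110, 3 of the genes rose and 2 fell. DIO1 rose 18.4-fold, KLF9 2.86-fold and DIO2 2.10-fold, while THRB fell by 1.39 and THRA fell by 0.54 on the log2 scale. NCOR1 did not pass the test. These are means over the 4 genotypes, and a call needed an adjusted p no higher than 0.01 together with a log2 difference of 0.5 or more. Of the 6 tested genes 5 were called, against 13.8% of all probes tested (6.07% higher and 7.71% lower), and the median of their differences was 0.57 against -0.02 for all probes. Within genotypes, 3 of the 6 genes were called in LW (4.76% of all probes), 2 in MS (3.12%), 4 in LWMS (9.86%) and 3 in MSLW (5.43%). With so few genes these counts are a description.

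**Figure D1:**
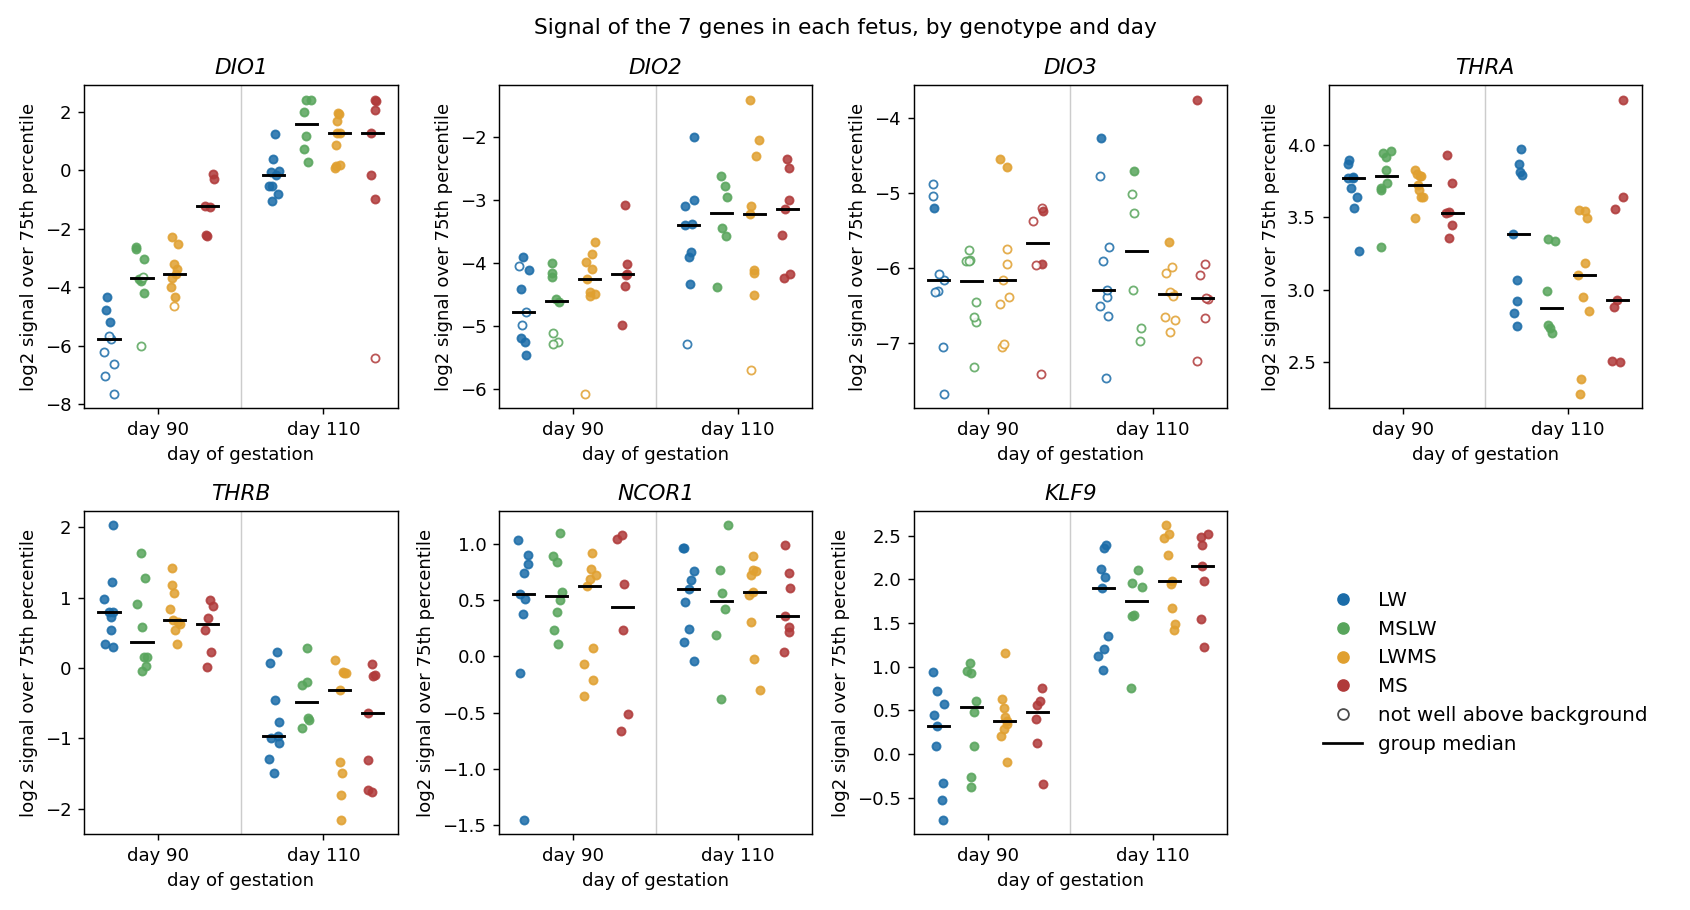
Each point is 1 fetus, with its log2 signal over the 75th percentile of its array on the vertical axis and the day of gestation on the horizontal axis, for the brightest tested probe of each gene and the brightest probe of DIO3. Bars are group medians and open points are not well above background. DIO1 climbs from medians of -5.77 to -1.23 at day 90 to medians of -0.15 to 1.59 at day 110, whereas most DIO3 points are open.

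DIO1, of all members, changed most with age. At day 90 the lowest, median and highest log2 signals were -7.64, -5.77 and -4.34 in LW, -6.01, -3.68 and -2.62 in MSLW, -4.64, -3.56 and -2.27 in LWMS, and -2.23, -1.23 and -0.13 in MS. At day 110 they were -1.05, -0.15 and 1.23 in LW, 0.29, 1.59 and 2.41 in MSLW, 0.07, 1.26 and 1.97 in LWMS, and -6.42, 1.28 and 2.40 in MS. In LW, LWMS and MSLW every fetus of day 110 lay above every fetus of day 90, while in MS 4 of the 7 did. The MS value of -6.42 belonged to fetus 632, and the next lowest MS fetus was at -0.97. At day 90 only 3 of 9 LW fetuses were well above background, against 6 of 8 MSLW, 8 of 9 LWMS and 6 of 6 MS, so the LW level at that age is partly a floor.

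The rise of DIO1 was 4.20 on the log2 scale (SE 0.33, adjusted p = 5.88e-16) over the 4 genotypes. It was 5.75 (SE 0.61, adjusted p = 6.19e-10) in LW, 5.21 (SE 0.70, adjusted p = 3.17e-07) in MSLW and 4.54 (SE 0.61, adjusted p = 1.14e-07) in LWMS. In MS it was 1.31 (SE 0.72, adjusted p = 0.305), which was not called, and without fetus 632 it was 2.39 (adjusted p = 0.00194), which was. The rise was present on 8 of 8 slides, between 3.09 and 5.24. A second DIO1 probe, A_72_P035401, rose by 4.06 (SE 0.29). Under the normexp background correction the LW rise was 3.12 and that over the 4 genotypes 3.01, and both were still called.

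Of the 6 tested genes, only DIO1 had a brightest probe that was called between the breeds. At day 90 it was 25.9-fold higher in MS than in LW (log2 difference 4.69, SE 0.69, adjusted p = 1.11e-06), and the highest LW fetus, at -4.34, lay below the lowest MS fetus, at -2.23. In this comparison 1 of the 6 genes was called, against 3.58% of all probes, and the median difference was 0.06 against 0.03 for all probes. The MS fetuses were higher on each of the 6 slides that held both breeds at that age, by 2.53 to 5.68. The size depended on how dim spots were handled, with a log2 difference of 2.21 under normexp and 2.78 in the authors' processed values, both called. At day 110 no member was called, against 4.99% of all probes. The DIO1 difference was then 0.25 (95% interval -1.06 to 1.56) and, without fetus 632, 1.34 (adjusted p = 0.0614).

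By group mean, the crossbred fetuses lay between the purebreds at day 90. MSLW fetus 450, at -6.01, and LWMS fetus 509, at -4.64, lay within the LW range. LWMS exceeded LW by 2.41 (adjusted p = 0.0339) and MSLW exceeded LW by 2.21 (adjusted p = 0.0823), while MS exceeded LWMS by 2.28 (adjusted p = 0.138) and MSLW by 2.49 (adjusted p = 0.0389). None of these 4 neighbouring steps was called for this probe, against 0.397%, 0.197%, 0.4% and 1.02% of all probes, and they were compared after the values were seen. For A_72_P035401 the step from MSLW to MS was called (2.64, adjusted p = 0.00644) and the other 3 were not. For the brightest probe, A_72_P336168, all 4 were called without fetus 632, with adjusted p from 0.000396 to 0.005. That fetus is of day 110 and in none of these groups, so the differences stayed the same and only the shared spread shrank. Each of the 4 steps stayed uncalled under 9 of 11 alternatives, with adjusted p up to 0.553. The reciprocal crosses LWMS and MSLW differed by 0.20 at day 90 (95% interval -1.06 to 1.47) and by -0.47 at day 110 (-1.84 to 0.90). No member was called between the reciprocal crosses, against 0.16% of all probes at day 90 and 0.254% at day 110. Averaged over both ages, DIO1 was higher with an MS than an LW sow by 1.17 (SE 0.33, adjusted p = 0.0105) and with an MS than an LW sire by 1.30 (SE 0.33, adjusted p = 0.00729), at a threshold of 0.05. Without fetus 632 these were 1.44 and 1.57. By their brightest probes it was the 1 gene of 6 called for each parent, against 16% of all probes for the sow and 6.95% for the sire.

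The breed by age term of DIO1, the change of MS minus the change of LW, was -4.44 (SE 0.95, adjusted p = 0.0445). It did not pass the threshold of 0.01, which 0.0173% of all probes did. Its value was -3.36 without fetus 632 (adjusted p = 0.0277) and -1.56 under normexp (adjusted p = 0.497). No member was called for it, and the other 5 genes had terms between -0.25 and 0.25. For the breed of the sow by age, 0.388% of all probes were called at 0.05, and for the sire by age none (0%). No brightest probe was called for the sow by age, with DIO1 at -2.56 (adjusted p = 0.0576), but the second DIO1 probe, A_72_P035401, was at -2.32 (adjusted p = 0.0469). That call was lost under 6 of 9 alternatives, with values from -2.36 to -0.95 and adjusted p up to 0.23. The F test of the 8 groups called 5 of the 6 genes, against 28.7% of all probes. Among those, by their brightest probes, the BIC placed DIO1 in the complete model with an interaction. It placed DIO2, THRA, THRB and KLF9 in the model with gestational age alone. Other probes of these genes differed. The THRB probe O10872 and the KLF9 probes A_72_P157696, A_72_P596059, A_72_P687044 and O14257 were placed in the additive model of age and genotype. The other DIO2 probe did not pass the F test.

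DIO2, the deiodinase that makes T3 inside cells, was well above background on 54 of 63 arrays. The lowest, median and highest log2 signals at day 90 were -5.46, -4.77 and -3.91 in LW, -5.28, -4.59 and -4.00 in MSLW, -6.07, -4.25 and -3.67 in LWMS, and -4.97, -4.18 and -3.09 in MS. At day 110 they were -5.28, -3.39 and -2.01 in LW, -4.38, -3.21 and -2.62 in MSLW, -5.69, -3.23 and -1.42 in LWMS, and -4.23, -3.15 and -2.35 in MS. The ages overlapped in every genotype, and 11 of the 31 fetuses of day 110 lay above the highest fetus of day 90. The rise of 1.07 (SE 0.21, adjusted p = 2.40e-05) was seen on 8 of 8 slides, by 0.59 to 2.01. No genotype's own rise was called, with 0.85 in MS to 1.36 in MSLW, although with the slide as a block that of MSLW was 1.69 (adjusted p = 0.0044). Under normexp the mean rise was 0.57, and it was still called. The other DIO2 probe, A_72_P165621, has the same sequence and rose less, by 0.89 (SE 0.22, adjusted p = 9.44e-04). On that probe only 2 of the 31 fetuses of day 110 lay above the range of day 90 and 1 lay below it, and its F test was not called (adjusted p = 0.0457).

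DIO3, the inactivating deiodinase, was near the floor throughout. Its 4 probes were well above background on 9, 6, 5 and 1 of 63 arrays. For the probe with 9, A_72_P479438, group medians ran from -6.40 to -5.67 and at most 2 fetuses of a group were well above background. A change of DIO3 between ages, breeds or crosses was not detectable on these arrays.

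THRA, the receptor that is widespread in the gut wall, fell with age. At day 90 its lowest, median and highest log2 signals were 3.27, 3.77 and 3.90 in LW, 3.29, 3.78 and 3.96 in MSLW, 3.50, 3.72 and 3.82 in LWMS, and 3.36, 3.53 and 3.93 in MS. At day 110 they were 2.75, 3.39 and 3.97 in LW, 2.70, 2.87 and 3.35 in MSLW, 2.28, 3.10 and 3.55 in LWMS, and 2.50, 2.93 and 4.31 in MS. The fetuses of day 90 lay close together and those of day 110 spread widely, so that 18 of the 31 fell below the lowest of day 90 and 2 lay above the highest. The change was -0.54 (SE 0.10, adjusted p = 6.24e-06), on 8 of 8 slides between -0.90 and -0.24. It was called in MSLW (-0.78, adjusted p = 0.00634) and LWMS (-0.67, adjusted p = 0.00429) and not in LW (-0.32) or MS (-0.40). Without fetus 632, which held the highest THRA signal of day 110, the MS change was -0.59 (adjusted p = 0.0553). Both further THRA probes changed by -0.53 and -0.57. The size sits near the minimum of 0.5, and with arrays centred on the median it was -0.49 and no longer called.

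THRB, the other T3 receptor, fell further. The lowest, median and highest log2 signals at day 90 were 0.29, 0.79 and 2.02 in LW, -0.05, 0.37 and 1.63 in MSLW, 0.33, 0.68 and 1.42 in LWMS, and 0.01, 0.62 and 0.97 in MS. At day 110 they were -1.49, -0.97 and 0.23 in LW, -0.85, -0.48 and 0.28 in MSLW, -2.15, -0.32 and 0.11 in LWMS, and -1.76, -0.64 and 0.06 in MS. In LW and LWMS the ages did not overlap, and over all genotypes 26 of the 31 fetuses of day 110 lay below the lowest of day 90. The change was -1.39 (SE 0.15, adjusted p = 5.11e-11), on 8 of 8 slides between -2.08 and -0.89. It was called in LW (-1.60), LWMS (-1.62) and MS (-1.35, adjusted p = 0.00582) but not in MSLW (-0.998, adjusted p = 0.0324). Whether the genotypes differ in this was tested by the genotype by age F test, which no member passed, against 0.0222% of all probes. The second THRB probe, O10872, printed above, changed by -0.85 (SE 0.12, adjusted p = 5.03e-08). The MS call was lost without fetus 632 (-1.27, adjusted p = 0.0134).

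NCOR1, the corepressor that unliganded receptors recruit, stayed within its spread. Its group medians were 0.44 to 0.63 at day 90 and 0.36 to 0.60 at day 110, and only 1 of the 31 fetuses of day 110 lay outside the range of day 90. The difference was 0.08 with a 95% interval of -0.18 to 0.34, and slides split 5 against 3 in direction. A dimmer probe, O11472, well above background on 43 of 63 arrays, behaved otherwise. It was lower in MS than in LW at day 110 by 1.99 on the log2 scale (adjusted p = 3.92e-04), where 4 of 7 MS and 7 of 9 LW fetuses were well above background. It also shares a stretch of at least 18 bases, on the opposite strand, with a probe of another name, so its gene is uncertain.

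KLF9 rose in all 4 genotypes, and whether T3 had a part in this was not tested. At day 90 the lowest, median and highest log2 signals were -0.75, 0.33 and 0.94 in LW, -0.38, 0.54 and 1.04 in MSLW, -0.09, 0.37 and 1.16 in LWMS, and -0.34, 0.48 and 0.76 in MS. At day 110 they were 0.97, 1.91 and 2.40 in LW, 0.76, 1.75 and 2.11 in MSLW, 1.42, 1.98 and 2.62 in LWMS, and 1.22, 2.15 and 2.52 in MS. The ages did not overlap in LW, LWMS and MS, and in MSLW 1 fetus of day 110 lay within the range of day 90. The rise was 1.52 (SE 0.12, adjusted p = 2.63e-15), called in each genotype at 1.22 in MSLW to 1.69 in MS, and present on 8 of 8 slides at 1.17 to 1.97. Each of the 11 KLF9 probes rose, by 0.97 to 1.83. Of these, 3 were well above background on only 27 to 40 arrays and passed the filter only through groups of day 110. The filter thus favoured the rise of these 3 probes, that of 1.83 among them, and their rise is no support for the change. Among the 3, 1 had no value in an MS fetus of day 90. A further 4 of the 11 overlap in sequence.

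**Figure D2:**
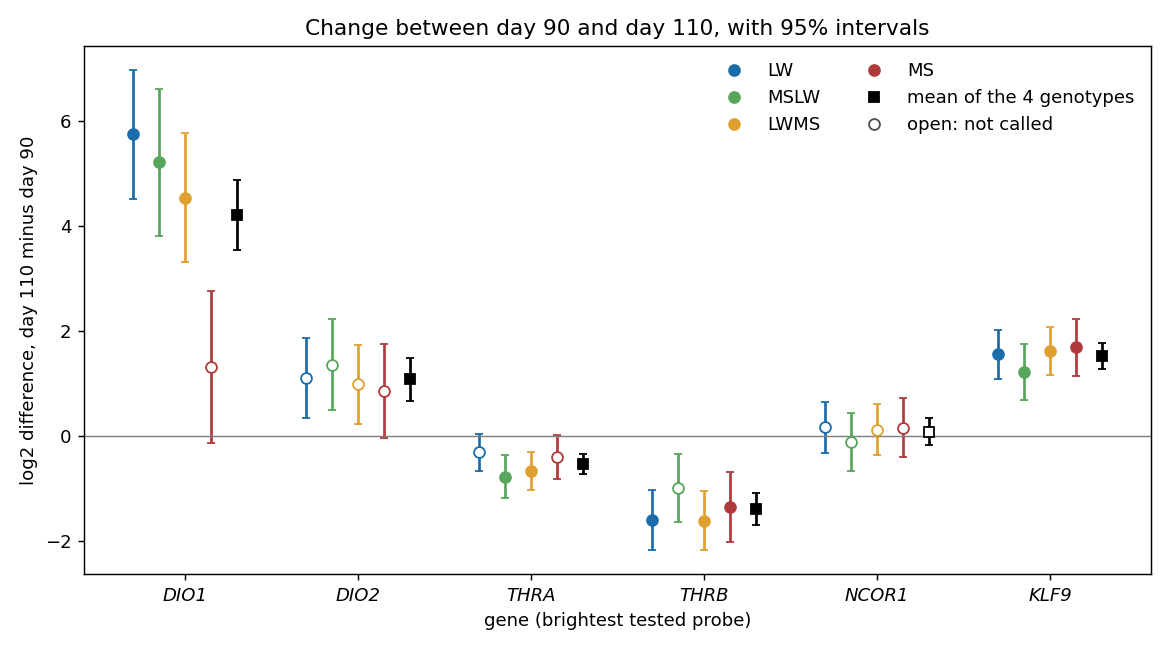
The vertical axis is the log2 difference, day 110 minus day 90, of the brightest tested probe of each gene. Circles are genotypes, squares are means of the 4 genotypes, bars are 95% intervals and open symbols were not called. DIO1 lies at 4.20 with MS at 1.31, DIO2 and KLF9 lie above 0, THRA and THRB below 0, and the NCOR1 intervals include 0.

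The KLF9 probes differed from each other between the breeds. The brightest probe, A_72_P672707, and the 3 that overlap it or each other near the end of the mRNA record, starting at bases 4201 to 4284 by the probe annotation, were not called between MS and LW at either age, with differences of 0.15 to 0.38. A further 3 probes, upstream of these, had higher values in MS. Of their 6 comparisons 3 were called, against 3.58% of all probes at day 90 and 4.99% at day 110. A_72_P687044, at base 3148, was higher by 1.14 (adjusted p = 0.00636) at day 90 and 1.24 (adjusted p = 0.00121) at day 110. A_72_P157696, at base 2928, was higher by 1.08 (adjusted p = 0.00387) at day 90 and 0.84 (adjusted p = 0.0182) at day 110, and A_72_P596059, at base 3572, by 1.01 and 0.93 (adjusted p = 0.0159 and 0.0158). The 3 dim probes nearer the start of the records, 1 of them (A_72_P070711, at base 170) on the same record, had differences between -0.06 and 0.56 and none was called. With an MS sow the 3 higher probes were higher by 0.61 to 0.64, in a comparison that called 16% of all probes. This does not set the sow apart from the sire. For all 3 probes, at both ages, the means of both crosses lay between those of the purebreds. For A_72_P687044 at day 90 the means were -3.14 in LW, -2.47 in MSLW, -2.49 in LWMS and -2.00 in MS. O14257 went the other way, at -0.93 (adjusted p = 0.0913) and -1.22 (adjusted p = 0.00786). It shares with A_72_P157696 a stretch of 11 bases on the opposite strand.

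**Figure D3:**
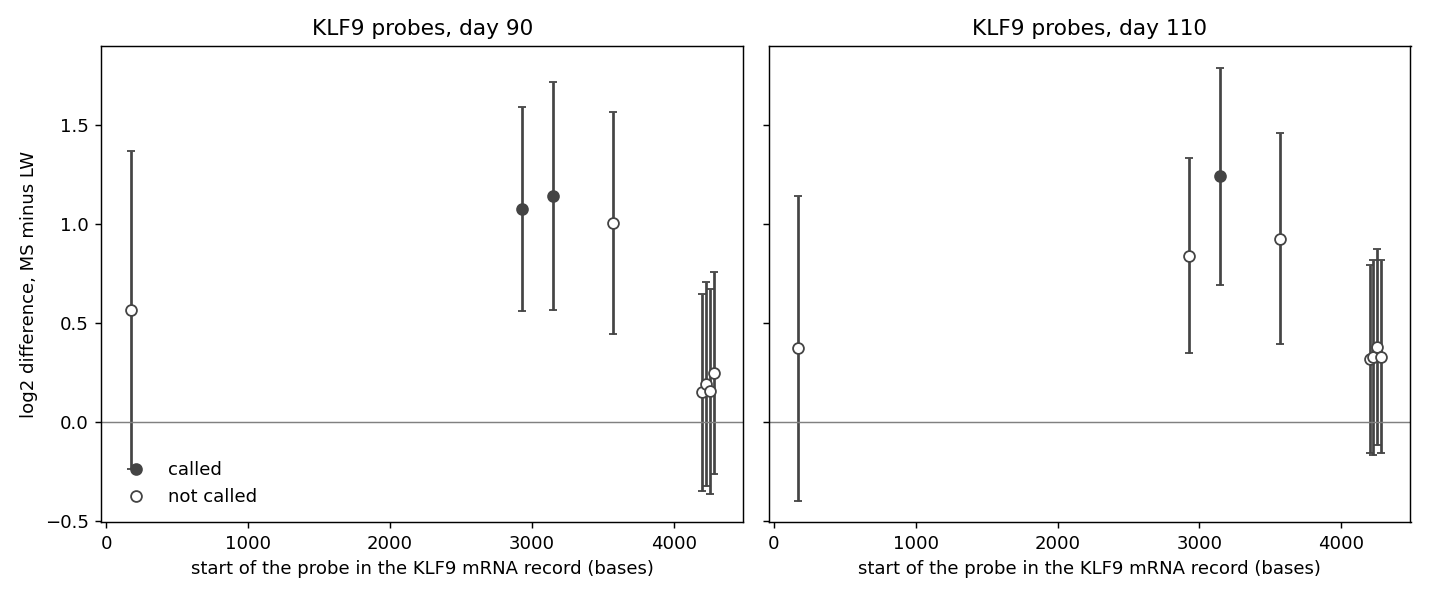
The horizontal axis is the start of each KLF9 probe in the mRNA record in bases, for the probes with the same record, and the vertical axis is the log2 difference of MS minus LW at day 90 (left) and day 110 (right), with 95% intervals. Filled points were called. The probes between bases 2928 and 3572 lie at 0.84 to 1.24, those from base 4201 on at 0.15 to 0.38, and the dim probe at base 170 at 0.56 and 0.37 with wide intervals.

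To set the probes against each other within a fetus, the log2 signal of each was taken minus that of A_72_P672707 on the same array, and MS was compared with LW by a two-sided exact permutation test, adjusted over 20 tests and chosen after the values were seen. At day 90 this difference was higher in MS by 0.89 for A_72_P157696 (adjusted p = 0.00200), 0.95 for A_72_P687044 (adjusted p = 0.00799) and 0.82 for A_72_P596059 (adjusted p = 0.00200). At day 110 the exact test gave 0.52 (adjusted p = 0.0116), 0.92 (adjusted p = 0.00210) and 0.60 (adjusted p = 0.00210) for the same probes. For A_72_P596059 at day 90, the MS fetuses ran from 0.15 to 0.87 and the LW fetuses from -0.66 to -0.13, without overlap. For O14257 the same test gave -1.12 (adjusted p = 0.00856) at day 90 and -1.54 (adjusted p = 0.00210) at day 110. The other 6 probes had adjusted p from 0.63 to 0.962. Why the probes of 1 gene differ by breed was not tested.

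The members were then compared across fetuses, with the group means removed, at each age apart. Of 30 relations (15 pairs of 6 genes at 2 ages), 10 had an adjusted permutation p under 0.05, 9 of them at day 110. Pairs of other genes were not tested in this way, so the count has no share over all probes beside it and is a description. The receptors were opposed at day 110, with THRA and THRB at Pearson r = -0.78 and Spearman rho = -0.78 (permutation p = 1e-05 for both, adjusted p = 2e-04 and 0.00015), and r = -0.80 without the 2 most extreme fetuses. DIO1 went against THRA (r = -0.74, rho = -0.71, permutation p = 3e-05 and 8e-05, adjusted p = 0.000225 and 0.00048) and with THRB (r = 0.56, rho = 0.73, permutation p = 0.00016 and 1e-05, adjusted p = 0.00096 and 0.00015). With the slide removed as well, DIO1 and THRB gave r = 0.44 (adjusted permutation p = 0.0791). NCOR1 went with THRA (r = 0.70, rho = 0.71, permutation p = 2e-05 and 3e-05, adjusted p = 2e-04 and 0.000225). KLF9 went with THRA (r = 0.56, rho = 0.54) and against THRB (r = -0.55, rho = -0.53), with permutation p from 0.002 to 0.00437 and adjusted p from 0.00857 to 0.0164. Without the 2 most extreme fetuses r was -0.68 for DIO1 with THRA, 0.72 for DIO1 with THRB, 0.65 for NCOR1 with THRA, 0.64 for KLF9 with THRA and -0.47 for KLF9 with THRB.

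The samples were whole jejunal wall, and in bulk tissue fewer cells of a type and less RNA per cell cannot be told apart. At day 110 the summed levels of cell type markers differed widely between fetuses, and 19 of their 24 relations with the 6 genes passed the test. Relations of other genes with these sums were not tested, so the share of all probes that would pass is not known. None of the 4 with DIO2 did (r from 0.02 to 0.33), nor did NCOR1 with the neuron and glia sum (r = 0.20). The sum of 5 fibroblast markers (COL1A1, COL3A1, PDGFRA, DCN and LUM) ran on the log2 scale from 6.45 to 7.57 at day 90 and from 5.76 to 7.32 at day 110, with fetus 632 at 7.97. The sum of 5 enterocyte markers ran from 8.70 to 10.19 at day 90 and from 8.00 to 10.96 at day 110, with fetus 632 at 7.07. Each sum adds signals on the linear scale, so its brightest markers weigh most. Without fetus 632, the day 110 medians of the enterocyte markers were 9.46 for APOA1, 7.47 for APOA4 and 7.19 for FABP2. They were 5.72 for EPCAM and 2.33 for CDH1, which thus add little to that sum. By their brightest probes no enterocyte marker was called with age. EPCAM and CDH1 rose by 0.44 each (adjusted p = 1.08e-08 and 4.35e-04), under the minimum of 0.5. Of all their probes, 3 of 4 for APOA1, 2 of 18 for EPCAM and 1 of 3 for CDH1 were called. By brightest probes, COL1A1 among 5 fibroblast markers and ACTA2 among 5 smooth muscle markers were called, at -0.81 and -0.55, against 13.8% of all probes. So were 2 of 5 neuron and glia markers, ELAVL4 (-0.63) and UCHL1 (-0.64), the leukocyte marker CD163 (0.94) and the liver marker SERPINA1 (-1.17). Of all their tested probes, 7 of 8 for ACTA2, 5 of 6 for DCN and 1 of 4 for DES were called. The brightest probes of DCN and COL3A1 fell by 0.497 and 0.36 (adjusted p = 3.07e-07 and 0.00842), under the minimum of 0.5. LUM and MYH11 changed by 0.05 and 0.04. The neuron and glia sum ran from 4.02 to 4.90 at day 90 and from 2.49 to 4.82 at day 110, with fetus 632 at 5.06. Between day 90 and day 110 the median of the fibroblast sum went from 7.13 to 6.47 and that of the smooth muscle sum from 8.13 to 7.71. The median of the neuron and glia sum went from 4.41 to 3.97 and that of the enterocyte sum from 9.52 to 10.18.

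Within groups at day 110, THRA followed the fibroblast sum at r = 0.90 (rho = 0.92, permutation p = 1e-05 for both, the smallest that 100000 permutations give, adjusted p = 9.6e-05 and 0.00016), with r = 0.88 without the 2 most extreme fetuses. It followed the smooth muscle sum at r = 0.86 and went against the enterocyte sum at r = -0.80, with rho of 0.85 and -0.74 (permutation p from 1e-05 to 2e-05, adjusted p from 9.6e-05 to 0.00024). THRB went against the fibroblast sum at r = -0.69 (rho = -0.74, permutation p = 5e-05 and 3e-05, adjusted p = 0.000343 and 0.000288). DIO1 followed the enterocyte sum at r = 0.82 (rho = 0.69, permutation p = 1e-05 and 4e-05, adjusted p = 9.6e-05 and 0.00032). That value rests in part on fetus 632, without which r was 0.65. In all, 28 of 48 such relations had an adjusted permutation p under 0.05, 9 at day 90 and 19 at day 110, and they were computed after the values were seen. These counts too have no share over all probes beside them. At day 90 the THRA and fibroblast sum gave r = 0.47, and 0.05 without the 2 most extreme fetuses. NCOR1 at day 90 went against the enterocyte sum at r = -0.78 (rho = -0.82, permutation p = 1e-05 for both, adjusted p = 9.6e-05 and 0.00016). The part of cell type make-up in the changes with age was not tested.

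**Figure D4:**
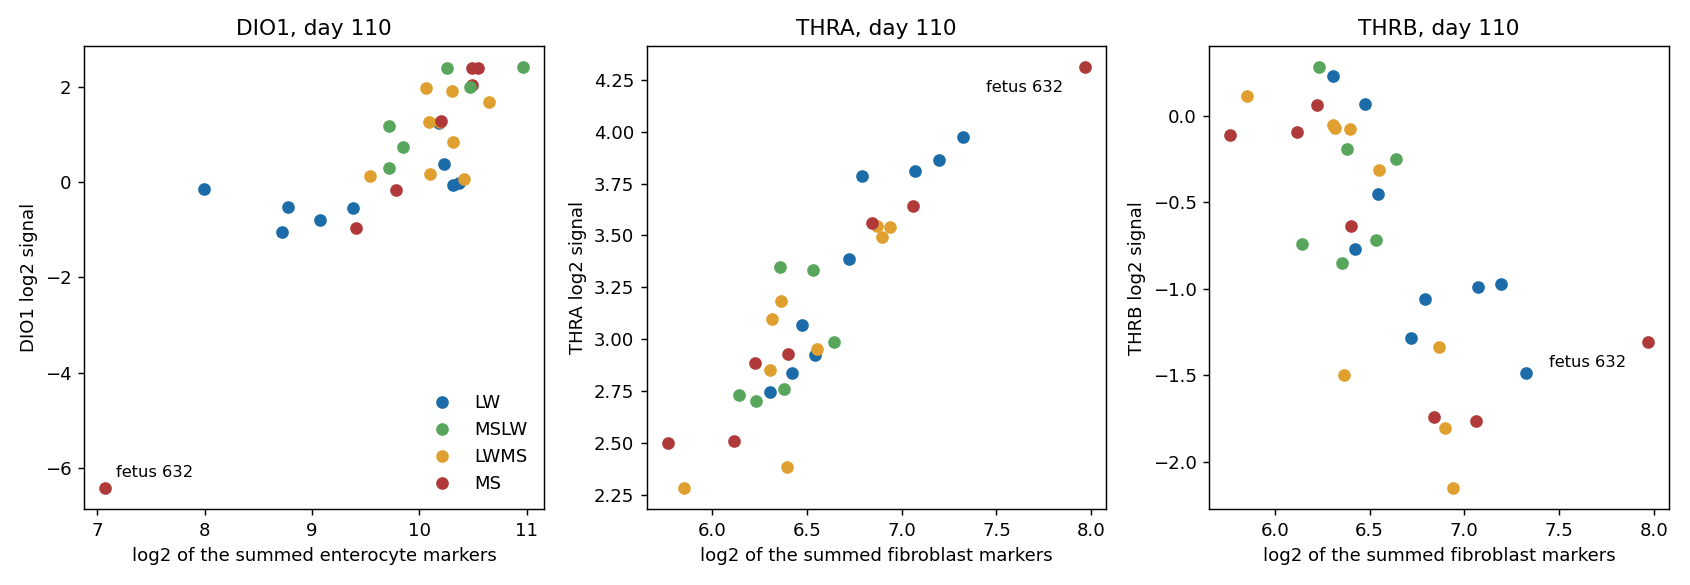
Each point is 1 fetus of day 110, coloured by genotype, with the log2 of a summed marker list on the horizontal axis and the log2 signal of DIO1, THRA or THRB on the vertical axis. THRA rises with the fibroblast sum and THRB falls with it, and fetus 632 lies at the end of each cloud on the horizontal axis, with DIO1 at -6.42 and THRA at 4.31.

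Other genes of the pathway mostly stayed below the thresholds. Of 59 listed genes, 48 had a probe and 43 a tested one, of which 4 rose and 2 fell with age, against 6.07% and 7.71% of all probes, and their median difference was 0.00 against -0.02. The 4 that rose were G6PC and PCK1, enzymes of gluconeogenesis (5.08 and 1.44), ALPI, the intestinal alkaline phosphatase of the brush border (2.47), and PPARGC1A, a coactivator of metabolic genes (1.05). G6PC was well above background on 14 of 32 arrays at day 90 and 30 of 31 at day 110. The 2 that fell were SULT1E1, a sulfotransferase that conjugates oestrogens and iodothyronines (-1.54), and SLC7A8, an amino acid transporter that also carries thyroid hormone (-0.68). SULT1E1 was well above background on 24 of 32 arrays at day 90 and 10 of 31 at day 110, so its level at day 110 is partly a floor. It passed the filter only through groups of day 90, where it was high, so the filter favoured its fall. With each array's floor set under it, its means were -4.22 and -4.89. By role, 3 of 11 known T3 targets rose, 1 of 7 coactivators rose, 1 of 3 transporters and 1 of 2 conjugating enzymes fell. By brightest probes, none of 3 retinoid X receptors, 5 corepressor components, 5 selenoprotein synthesis genes, 2 binding proteins or 5 genes of hormone synthesis was called. For the binding protein TTR, 2 of 3 probes were called with age, but not the brightest (0.69, adjusted p = 0.0155). Between the breeds, SERPINA7, the thyroxine-binding globulin, was lower in MS at day 90 by 2.46 on the log2 scale (adjusted p = 0.00188). With 7 of 9 LW and 1 of 6 MS fetuses well above background, this size was measured largely against the floor. SERPINA7 passed the filter only through LW of day 90, the group where it was high, so the filter favoured this call. At day 110 G6PC was higher in MS by 3.04 (adjusted p = 9.84e-06). Without fetus 632, 5 rose and 3 fell with age, TTR and SFRP2 being added, and PCK1 and TTR joined G6PC at day 110. Without fetuses 484 and 469, PCK1 joined it there and BCL3 was lower.

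**Figure D5:**
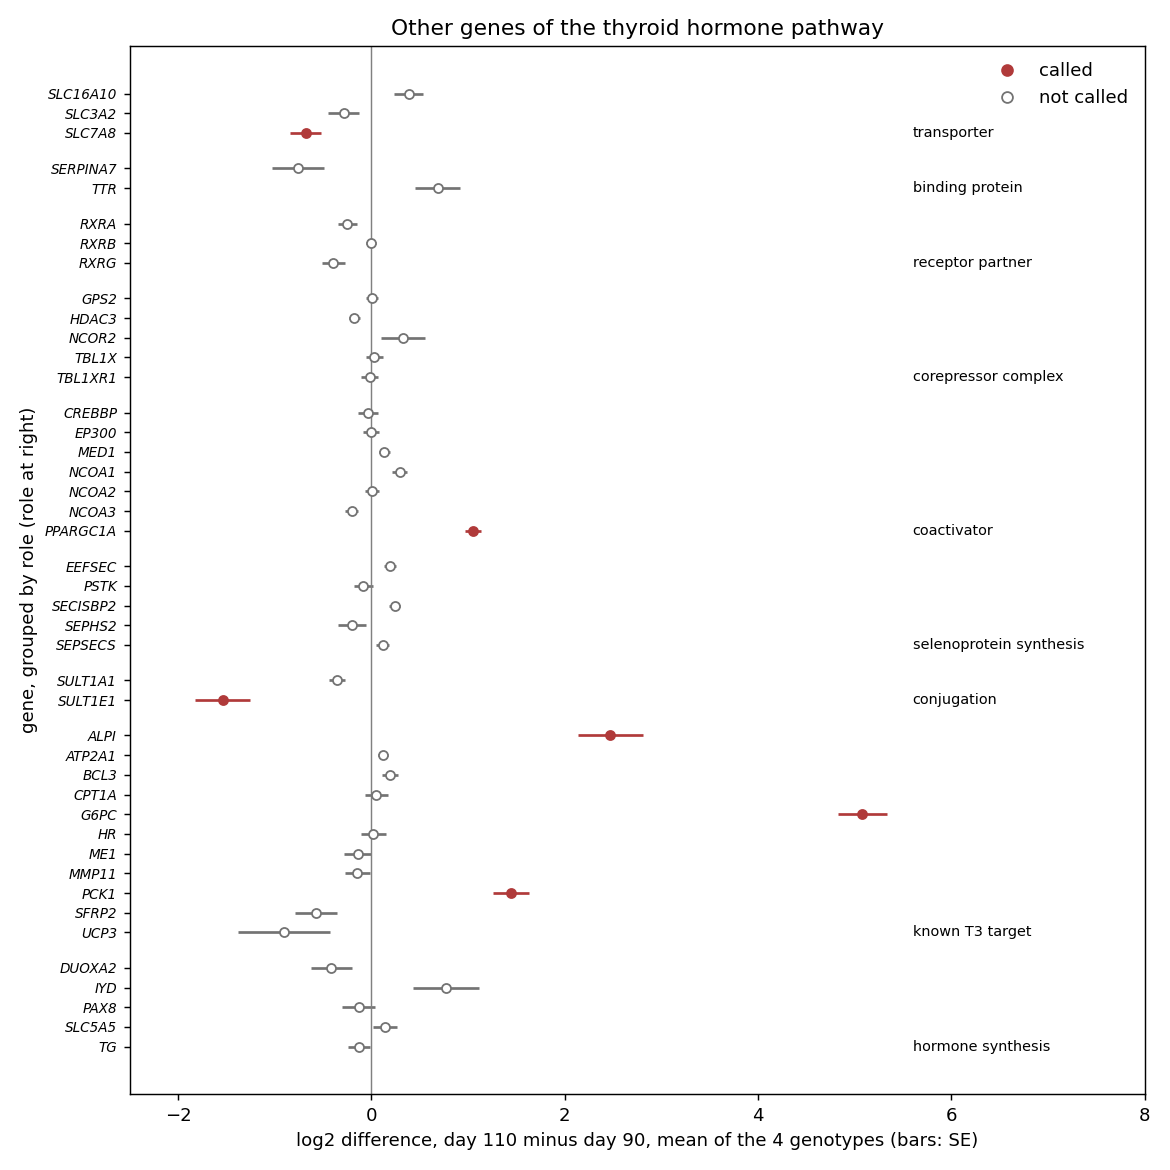
The horizontal axis is the log2 difference, day 110 minus day 90, as the mean of the 4 genotypes with its SE, for the 43 tested pathway genes, grouped by role. Filled points were called. Most genes lie near 0, and G6PC, ALPI, PCK1 and PPARGC1A lie to the right at 5.08, 2.47, 1.44 and 1.05.

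By the likeness of their profiles over the 63 arrays, searched among 17807 probes, the genes closest to DIO1 were SEC14L2 (r = 0.92), SMPDL3B (r = 0.90) and SLC5A4 (r = 0.89). Those closest to THRB were PLA1A (r = 0.92), CDH16 (r = 0.89) and RBP4 (r = 0.88), and those closest to THRA were SRPK3, DACT3 and FZD7 (r = 0.91 each). PDK4, a kinase that restrains glucose oxidation, was closest to KLF9 (r = 0.92), followed by C7 and CD24. DIO2 had no neighbour above r = 0.72, reached by LRP10. These values are descriptions over fetuses that share ages and breeds. With the group means removed, r was 0.69 for SEC14L2 with DIO1, 0.83 for PLA1A with THRB, 0.86 for SRPK3 with THRA and 0.78 for PDK4 with KLF9.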

How the data were processed

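Jejunum RNA of 63 fetuses was measured on 63 arrays, with groups taken from the labels. The authors deposited scanner output with background-corrected spot intensity (Agilent Feature Extraction 10.10.1.1 per the submitters' processing notes) and a matrix of processed log2 values. Here the log2 intensity was taken, the array's 75th percentile subtracted, control and outlier spots left out and spots of a probe averaged. Subtracted background makes sizes near the floor uncertain, and the number of arrays limits precision.

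Software was R 4.3.3, jsonlite 2.0.0, limma 3.58.1 and data.table at version 1.17.8. The 8 group means were fitted with limma, with p-values adjusted by Benjamini-Hochberg over the 40515 probes tested, and checked on simulated data. Parental effects were called at an adjusted p under 0.05 and other calls are given in the text. A gene was named by the list it belongs to and its brightest tested probe. Correlations used 100000 permutations within groups.

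The sow, a random effect in the study, is not used here, so litter mates enter as independent. Members and lists were chosen with earlier results of these data known. Alternatives were the authors' log2 matrix, normexp (offset 50), quantile normalization, median centring, other filters, no minimum difference, the slide as a block, array weights, the gene median, purebreds alone and leaving out fetuses 484 and 469. Leaving out fetus 632, the steps between neighbouring genotypes, the paired KLF9 probes and the marker sums were added after seeing the data. Array files give no genome build, so no coordinates are given.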

Additional observations from a re-analysis of the deposited data

Results flagged for a closer look

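In 5 of 48 sets of 1 gene in 1 group, 1 fetus lay apart by the gap to its nearest neighbour, where chance gives about 1 in 20. DIO1 was -6.42 in MS fetus 632 of day 110, against -0.97 in the nearest. DIO1 was -6.01 in MSLW fetus 450 of day 90, against -4.20. DIO2 was -6.07 in LWMS fetus 504 of day 90, against -4.53. THRA was 3.29 in MSLW fetus 498 of day 90, against 3.69. NCOR1 was -1.45 in LW fetus 484 of day 90, against -0.14. Fetus 632 was also lowest of day 110 in 3 of 5 enterocyte markers (FABP2 0.20, APOA4 0.78 and APOA1 6.18). The remaining enterocyte markers were not low, with CDH1 at 2.77 and EPCAM at 5.71. Their medians in the other fetuses of day 110 were 2.33 and 5.72. Fetus 632 was highest in 4 of 5 fibroblast, 2 of 5 smooth muscle and 3 of 5 neuron and glia markers.

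A pair of DIO1 terms differed between groups at an adjusted p under 0.05. The MS minus LW change with age of probe A_72_P336168 was -4.44 (adjusted p = 0.0445). The change with age of probe A_72_P035401 with an MS minus an LW sow was -2.32 (adjusted p = 0.0469), a call lost under 6 of 9 alternatives.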

How the results depend on the processing

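Of the counts of members called, 178 alternative values stayed within 1.5 times and 15 did not, as follows. With only probes well above background on all arrays, DIO1 and DIO2 have no tested probe, so 3 of 4 genes were called with age and by the F test, and 0 for MS against LW at day 90, the sow and the sire. The 2 MS calls with age became 1 under median centring, the slide block or purebreds alone, and 4 under array weights, which also gave 1 call for MS against LW at day 110 and 2 for the sow. With the gene median, 2 were called at day 90, 2 for the sow and 1 for the sow by age, the last also without fetus 632. Among single genes, 665 values kept direction and side of the threshold, 31 lost a call, 17 gained one and 1 turned, NCOR1 with age at -0.11 (adjusted p = 0.397) under array weights. Changes of DIO1 and DIO2 with age kept their calls over the 4 genotypes under every alternative that tested them, at 3.01 to 4.47 and 0.57 to 1.16. THRA's call in MSLW was lost under 5 of 12 alternatives, and THRB's in MS under 4 of 13. Of the KLF9 probe calls between breeds, that of O14257 at day 110 was lost under 6 alternatives. Median centring moved the median of all probes for MS minus LW at day 110 to 0.15. No paired analysis was possible because replicate numbers are fetus numbers that no groups share. Groups did share slides, which served as a block and for the differences within slides.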
